A study of Bos taurus with 6 samples.

Results

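The 10 genes described here encode the lactate dehydrogenase subunits LDHA and LDHB, the lactate transporters SLC16A1 and SLC16A3, the pyruvate dehydrogenase subunits PDHA1 and PDHB, and the pyruvate dehydrogenase kinases PDK1, PDK2, PDK3 and PDK4. They were chosen by what their proteins do with pyruvate and lactate, with earlier results of these data known, and matched by gene symbol and Entrez identifier. All 10 were among the 19163 genes of the deposited count table, and 9 of them were among the 13001 genes with enough counts to be tested. PDK4 was not.

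The cells were F7, a bovine embryonic stem cell (bESC) line derived from an in vitro fertilized Holstein Friesian embryo. MC-F7 is F7 grown on mouse embryonic fibroblasts (MEFs) treated with mitomycin C (MC-MEFs), which leaves the feeder cells alive but unable to divide. MT-F7 is F7 grown on MEFs fixed with methanol (MT-MEFs), which kills them. The MEFs of both groups came from C57 mice, both groups were at 15 passages, and the medium of both held a fibroblast growth factor and IWR1, an inhibitor of canonical WNT signaling. The medium was changed every day for MC-F7 and every other day for MT-F7, so that the feeder and the feeding schedule cannot be told apart. Dissociated cells were set on gelatin, to which fibroblasts attach first, and the floating cells were collected for RNA. Each group had 3 libraries. All libraries came from 1 line, and no source used here says that they came from separate cultures. The study's statistics section speaks of technical replicates, without saying whether this covers the RNA-seq, so the p values measure only the spread between these libraries, which may be technical.

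Glycolysis ends in pyruvate, and a cell has several uses for it. Lactate dehydrogenase, a tetramer of LDHA and LDHB subunits, interconverts pyruvate and lactate, and proton-coupled transporters of the SLC16 family carry lactate across the plasma membrane. In the mitochondrion the pyruvate dehydrogenase complex converts pyruvate to acetyl-CoA, and the PDK kinases switch that complex off by phosphorylating its alpha subunit. Pluripotent stem cells are known for a high rate of glycolysis with release of lactate, and LDHA, SLC16A3 and PDK1 are textbook targets of the hypoxia-inducible factors.

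The library totals ran from 21958386 to 24933430 counted reads, and 3 counts, the smallest amount taken as detected, equalled 0.12 to 0.137 CPM (counts per 1000000 counts). Such limits cover counting error only. Over all tested genes the median log2 fold change of MT-F7 over MC-F7 was -0.0026, and 3016 genes (23.2%) had an adjusted p under 0.05. The genes of the mitochondrial genome took 16.3% to 28.3% of the counts in MC-F7 and 18.0% to 27.9% in MT-F7, with the highest share in replicate 3 of each group. Replicate 3 was also the lowest library of its group for 7 of the 9 tested lactate and pyruvate genes in MC-F7 and for 7 of 9 in MT-F7. It was the lowest for 40.6% and 40.5% of all tested genes. The part of replicate 3 in the results was not tested, but the count of changed genes is given below with and without those libraries.

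Both lactate dehydrogenase genes and the export transporter SLC16A3 were reduced in MT-F7, as were the dehydrogenase subunit PDHA1 and the kinase PDK1. SLC16A1, PDHB, PDK2 and PDK3 did not pass the test. Of the 9 tested genes, 5 were significantly lower in MT-F7 (LDHA, LDHB, SLC16A3, PDHA1 and PDK1) and none was significantly higher, by edgeR's quasi-likelihood test with Benjamini-Hochberg adjustment over all 13001 genes. Among all tested genes, 11.3% were significantly lower and 11.9% significantly higher. The median log2 fold change of the 9 genes was -0.59. The groups did not overlap in 7 of the 9 genes (40% of all tested genes). In 6 of the 9 genes every MT-F7 library was below every MC-F7 library (20.1% of all tested genes), in 1 gene every MT-F7 library was above (19.9%), and in SLC16A1 and PDHB the groups overlapped. At an unadjusted p under 0.05, still 0 of the 9 were higher, and DESeq2 also called 0 higher. Without both replicate 3 libraries, 7 of the 9 genes were significantly lower, but so were more genes in all (2047 of 13073, and 4242 in either direction). LDHA and PDK1 were named by the study from these same libraries, so their direction is not independent evidence. The study also reports a reduced LDHA level in MT-F7 by quantitative PCR (RT-PCR), which was not analysed here. Markers of other cell types also moved between the groups, and their values are given after the pathway genes. In bulk RNA, fewer cells of a type and less RNA per cell cannot be told apart.

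**Figure D1:**
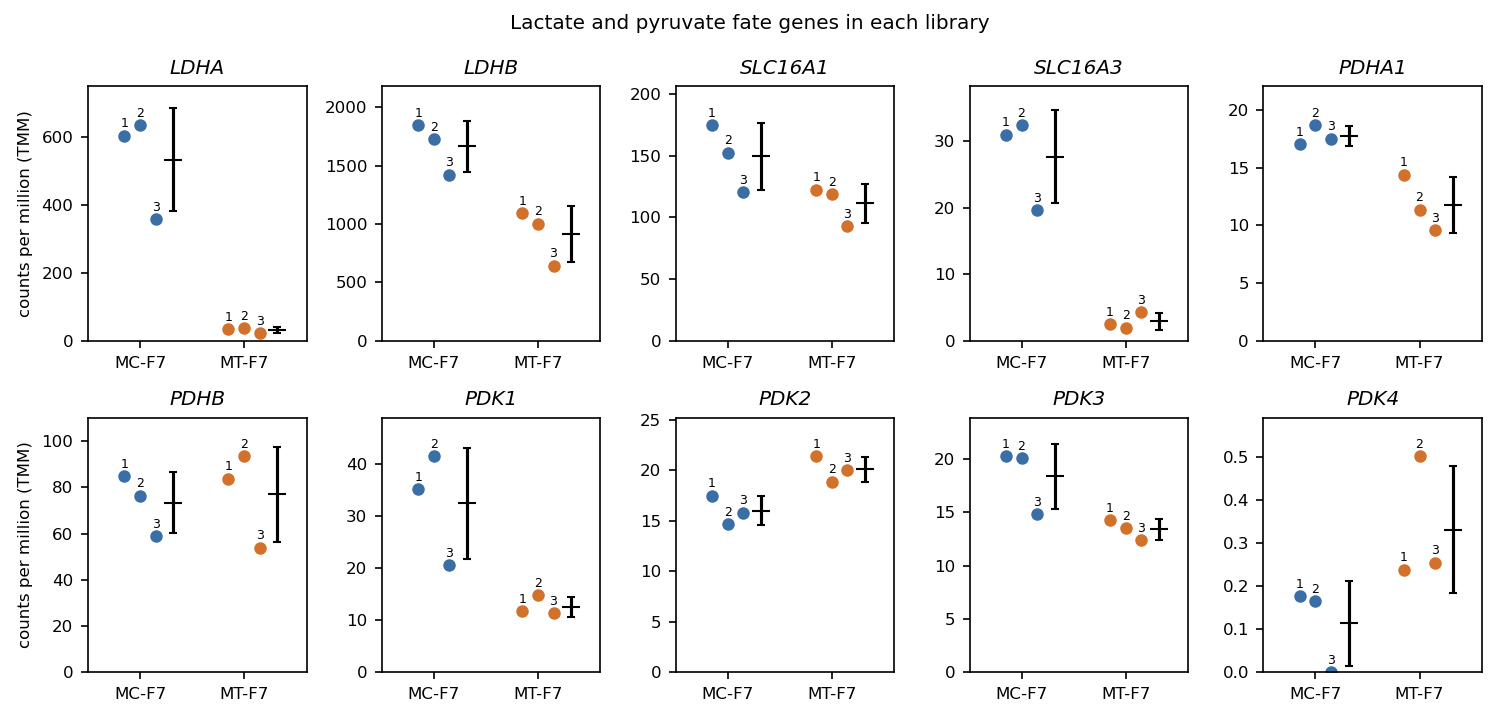
CPM, with normalization by the trimmed mean of M values (TMM), of each of the 10 genes in the 3 MC-F7 libraries (blue) and the 3 MT-F7 libraries (orange). Numbers above the points are replicate numbers, bars are the mean with the SD, and each panel has its own axis from 0. LDHA and SLC16A3 have the widest gaps between the groups, while SLC16A1 and PDHB overlap, and the PDK4 panel spans less than 1 CPM.

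LDHA encodes the muscle-type subunit of lactate dehydrogenase, which favours the reduction of pyruvate to lactate. Its level was 606, 637 and 359 CPM in the MC-F7 libraries and 34.8, 38.4 and 23.5 CPM in the MT-F7 libraries. The lowest MC-F7 library, replicate 3, was still far above the highest MT-F7 library. The mean fell from 534 ± 152 to 32.3 ± 7.78 CPM (SD, n = 3 in each group), or 16.5-fold lower (log2 fold change -4.05, standard error 0.262, adjusted p = 7.7e-07). Of the 13001 tested genes, LDHA had the 17th lowest log2 fold change and the 21st smallest p value.

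LDHB encodes the heart-type subunit, which favours the oxidation of lactate to pyruvate. Its level was 1849, 1724 and 1422 CPM in MC-F7 and 1094, 1004 and 645 CPM in MT-F7. All MC-F7 libraries were above all MT-F7 libraries, and replicate 3 was the lowest in both groups. LDHB was 1.82-fold lower in MT-F7 (log2 fold change -0.87, standard error 0.211, adjusted p = 0.0099). In limma on the deposited TPM values, which were not rescaled for library size or composition, LDHB did not pass the threshold (log2 fold change -0.76, adjusted p = 0.158, with a pseudocount of 1).

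The make-up of the dehydrogenase was compared per gene length, with the values that the authors deposited as TPM. LDHA made up 24.4%, 26.7% and 19.9% of the summed LDHA and LDHB level in the MC-F7 libraries, and 3.04%, 3.63% and 3.47% in the MT-F7 libraries. LDHB was thus the more abundant transcript in all 6 libraries, and the LDHA share was lower in every MT-F7 library. LDHB exceeded LDHA by 3.29-fold ± 0.658 on MC-MEFs and by 28.8-fold ± 2.80 on MT-MEFs (SD, n = 3). The log2 ratio of LDHA to LDHB differed by -3.14 between the group means, with no overlap (exact permutation test, two-sided, p = 0.1, the smallest that 3 libraries against 3 can give). The summed TPM of both genes fell from 243 ± 50.8 to 115 ± 33.6.

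SLC16A3 encodes the monocarboxylate transporter known for lactate export from glycolytic cells. Its level was 31.0, 32.5 and 19.6 CPM in MC-F7 and 2.51, 1.97 and 4.33 CPM in MT-F7. The groups were far apart, and here replicate 3 was the lowest library of MC-F7 but the highest of MT-F7. The MT-F7 values rest on 63, 51 and 102 counts. SLC16A3 was 9.46-fold lower in MT-F7 (log2 fold change -3.24, standard error 0.292, adjusted p = 7.6e-06), the 51st lowest log2 fold change of all tested genes.

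SLC16A1 encodes the widely expressed monocarboxylate transporter, which carries lactate in either direction. Its level was 175, 152 and 121 CPM in MC-F7 and 123, 119 and 93.1 CPM in MT-F7. The lowest MC-F7 library lay below the highest MT-F7 library, so the groups overlapped. The difference did not pass the threshold (log2 fold change -0.42, standard error 0.175, adjusted p = 0.10), and its 95% interval, before adjustment for many genes, ran from -0.80 to -0.04. Without MC-F7 replicate 3 it was -0.56 and passed (adjusted p = 0.029).

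Per gene length, SLC16A3 made up 19.0%, 22.0% and 17.7% of the summed level of both transporters in the MC-F7 libraries and 2.63%, 2.15% and 5.79% in the MT-F7 libraries. SLC16A1 was the more abundant transporter transcript in all 6 libraries. The log2 ratio of SLC16A1 to SLC16A3 rose from 2.05 ± 0.198 to 4.91 ± 0.786 (SD, n = 3), a difference of 2.87 with no overlap (exact permutation test, two-sided, p = 0.1, the smallest possible). In both pairs, then, the member with the lower level in MC-F7 had the larger fall.

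**Figure D2:**
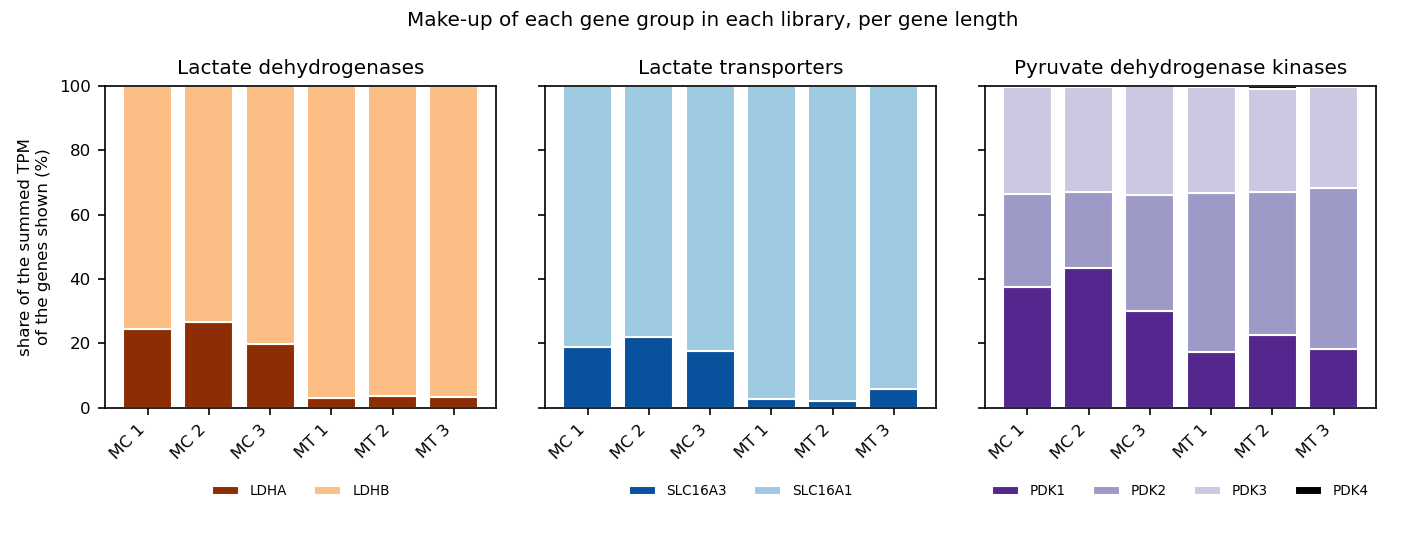
Stacked bars of the share (%) of each gene in the summed deposited TPM of its group, for the lactate dehydrogenases, the lactate transporters and the pyruvate dehydrogenase kinases. Each bar is 1 library, with MC-F7 (MC) at the left of each panel and MT-F7 (MT) at the right. The dark LDHA and SLC16A3 segments shrink to 5.79% or less in every MT-F7 library, and PDK2 is the largest kinase segment there, as it already is in MC 3.

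PDHA1 and PDHB encode the alpha and beta subunits of the first enzyme of the pyruvate dehydrogenase complex. PDHA1 was at 17.0, 18.7 and 17.5 CPM in MC-F7 and at 14.4, 11.4 and 9.60 CPM in MT-F7. The MC-F7 libraries lay close together, and all were above the MT-F7 libraries. The difference passed the threshold (log2 fold change -0.59, standard error 0.185, adjusted p = 0.035). This call was lost when any 1 of 4 libraries was left out: MC-F7 replicate 1 (adjusted p = 0.055), MC-F7 replicate 2 (0.13), MT-F7 replicate 2 (0.11) or MT-F7 replicate 3 (0.075). It was also lost in limma on log2(TPM + 1) (log2 fold change -0.20, adjusted p = 0.18).

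PDHB was at 85.0, 76.4 and 58.8 CPM in MC-F7 and at 83.7, 93.4 and 54.0 CPM in MT-F7. The groups overlapped over nearly their whole range, and replicate 3 was the lowest in both. No difference was detected (log2 fold change 0.07, standard error 0.208, adjusted p = 0.84), with a 95% interval from -0.38 to 0.52. The log2 fold change was -0.07 without MC-F7 replicate 3 and -0.09 without MT-F7 replicate 2.

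The subunits are built into the enzyme in equal numbers, but their deposited transcript levels were not equal. Per gene length PDHB was 12.1, 9.87 and 8.12 times as high as PDHA1 in the MC-F7 libraries and 14.1, 19.9 and 13.6 times as high in the MT-F7 libraries. The ratio was higher in every MT-F7 library. How reads that match near-identical gene copies were counted is not given in the sources used here, so the low level of PDHA1 is uncertain. Another gene of central metabolism, the glycolytic enzyme gene TPI1, had only 3 to 9 counts in each library.

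PDK1, the kinase best known as a hypoxia-responsive gene, was at 35.3, 41.5 and 20.7 CPM in MC-F7 and at 11.8, 14.8 and 11.3 CPM in MT-F7. Replicate 3 of MC-F7 was well below the other MC-F7 libraries but above all MT-F7 libraries. PDK1 was 2.57-fold lower in MT-F7 (log2 fold change -1.36, standard error 0.236, adjusted p = 0.0012). In limma on log2(TPM + 1), a scale that understates the change of low genes, it was -0.62 and did not pass (adjusted p = 0.113), although it passed when only genes averaging 1 TPM or more were tested (adjusted p = 0.043).

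PDK2, the most widely expressed of the kinases, was at 17.5, 14.7 and 15.8 CPM in MC-F7 and at 21.4, 18.9 and 20.0 CPM in MT-F7. It was the only one of the 9 tested genes with every MT-F7 library above every MC-F7 library. Even so, the test did not pass (log2 fold change 0.33, standard error 0.160, adjusted p = 0.16, 95% interval from -0.02 to 0.68). In limma on log2(TPM + 1) it was 0.28 and passed among all genes (adjusted p = 0.029), but not among genes averaging 1 TPM or more (adjusted p = 0.11).

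PDK3, another kinase of the family, was at 20.3, 20.1 and 14.9 CPM in MC-F7 and at 14.3, 13.5 and 12.4 CPM in MT-F7, with all MT-F7 libraries lower. That difference did not pass the threshold (log2 fold change -0.46, standard error 0.178, adjusted p = 0.083). Without MC-F7 replicate 3 it was -0.59 and passed (adjusted p = 0.026). PDK4, a kinase known for its induction by fasting and fatty acids, was counted 4, 4 and 0 times in the MC-F7 libraries and 6, 13 and 6 times in the MT-F7 libraries. These counts were too few for a test in the filtered table, and with no filter PDK4 did not pass (log2 fold change 1.48, standard error 0.971, adjusted p = 0.32).

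Among the kinase transcripts the PDK1 share was smaller and the PDK2 share larger in every MT-F7 library. Per gene length PDK1 made up 37.4%, 43.4% and 30.2% of the 4 kinases in the MC-F7 libraries and 17.4%, 22.5% and 18.3% in the MT-F7 libraries. PDK2 made up 28.9%, 23.8% and 35.9% in the MC-F7 libraries and 49.2%, 44.7% and 50.2% in the MT-F7 libraries. The groups did not overlap for either gene, in opposite directions, while the PDK3 share overlapped between the groups and lay between 31.1% and 33.9% in all 6 libraries. PDK4 was at most 0.815%. The summed kinase TPM went from 4.44 ± 1.01 to 3.66 ± 0.309 (SD, n = 3), with overlap between the groups. As CPM, which are scaled for library size but not for length, the kinase sum was 51.3 to 76.4 in MC-F7 against 44.0 to 47.7 in MT-F7, with no overlap. Its ratio to PDHB per length was 0.479, 0.542 and 0.503 in the MC-F7 libraries and 0.349, 0.304 and 0.497 in the MT-F7 libraries, also with overlap, while the ratio of the CPM did not overlap (0.862 to 1.00 against 0.511 to 0.816). The mean ratio to PDHA1, the subunit that the kinases phosphorylate, went the other way. It was 5.07 ± 0.881 in MC-F7 and 5.90 ± 0.934 in MT-F7 per length, and 3.77 ± 0.734 and 4.03 ± 0.652 as CPM, with overlap in both. These shares, sums and ratios were not tested.

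The order of the 10 levels per gene length differed between the groups. LDHB was the highest in every library, with 148 to 203 TPM in MC-F7 and 73.8 to 134 TPM in MT-F7. LDHA was number 2 of 10 in every MC-F7 library and number 4 in every MT-F7 library, and SLC16A3 was number 5 in every MC-F7 library and number 9 in every MT-F7 library. PDHB moved from number 4 in every MC-F7 library to number 2 in every MT-F7 library, and PDK2 from numbers 8, 8 and 6 to number 5. In MC-F7 the ranges of the neighbours SLC16A1 and PDHB overlapped, as did those of SLC16A3 and PDK1 and those of PDK1, PDK3 and PDK2. In MT-F7 the ranges of PDHB and SLC16A1 overlapped, as did those of PDHA1 and PDK1, and the others did not.

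**Figure D3:**
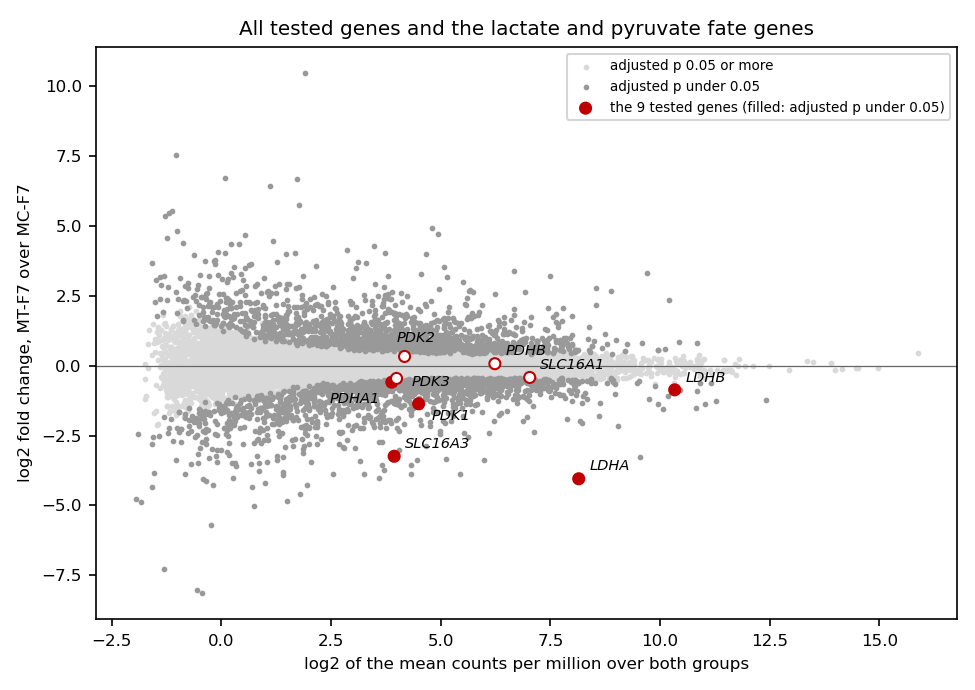
Log2 fold change of MT-F7 over MC-F7 (y axis) against the log2 of the mean CPM (x axis) of the 13001 tested genes. Red points are the 9 tested lactate and pyruvate genes, filled where the adjusted p was under 0.05, and dark grey points are the other genes past that threshold. LDHA lies apart below genes of its level, with a log2 fold change of -4.05, whereas LDHB, the most abundant of the 9, lies at -0.87.

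The neighbouring steps were described with lists of other genes. Among other lactate genes, 0 of the 3 tested passed the threshold (median log2 fold change -0.16) in edgeR, 0 had an unadjusted p under 0.05, and DESeq2 called 0. In edgeR 23.2% of all tested genes passed. BSG, the chaperone that carries both lactate transporters to the membrane, was at 768 ± 83.8 CPM in MC-F7 and 688 ± 56.7 CPM in MT-F7 (log2 fold change -0.16, standard error 0.160, adjusted p = 0.52). LDHD, which oxidizes D-lactate, had a log2 fold change of -0.86 (adjusted p = 0.18) at about 1 CPM or less. LDHC and SLC16A8 had too few counts to be tested, and LDHAL6B and EMB were not analysed here.

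Of the genes for pyruvate entry into the mitochondrion and the rest of the pyruvate dehydrogenase complex, 1 of 8 tested was lower and none was higher (median -0.27), close to the 11.3% of all tested genes that were lower. That gene was PDP2, a phosphatase that reverses the action of the kinases, with 15, 46 and 31 counts on MC-MEFs and 11, 7 and 2 on MT-MEFs (log2 fold change -2.31, adjusted p = 0.013). It did not pass without MC-F7 replicate 2 (adjusted p = 0.076). The carrier subunits MPC1 (log2 fold change 0.21, adjusted p = 0.58) and MPC2 (-0.42, adjusted p = 0.34), the complex genes DLAT (-0.27, 0.39), DLD (-0.36, 0.17) and PDHX (0.26, 0.36), and the more abundant phosphatase PDP1 (-0.27, 0.29) did not pass. MPC2 passed without MC-F7 replicate 3 (-0.72, adjusted p = 0.038).

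Of 8 genes for other routes into or out of pyruvate, ME1 was lower and ME3 was higher (median 0.03). This count is close to the 23.2% of all tested genes called in either direction. ME1, the cytosolic malic enzyme that makes pyruvate and NADPH, fell from 38.1 ± 3.74 to 21.6 ± 5.23 CPM (SD, n = 3; log2 fold change -0.82, adjusted p = 0.0074). ME3, a mitochondrial malic enzyme, rose from 1.10 ± 0.430 to 3.03 ± 1.31 CPM (1.46, adjusted p = 0.020), a call that was lost without MC-F7 replicate 2 (adjusted p = 0.088) or MT-F7 replicate 2 (0.12). Neither ME1 (adjusted p = 0.122) nor ME3 (0.141) passed in limma on log2(TPM + 1), and nor did PDP2 (0.143). PC, pyruvate carboxylase, was at 106, 91.0 and 102 CPM in MC-F7 and 127, 113 and 143 CPM in MT-F7. Its groups did not overlap, but the test did not pass (log2 fold change 0.36, adjusted p = 0.11). In limma on log2(TPM + 1) PC passed (0.38, adjusted p = 0.018). For PCK2 every MT-F7 library was below every MC-F7 library, but the test did not pass (log2 fold change -0.45, adjusted p = 0.084). It passed without MT-F7 replicate 3 (-0.61, adjusted p = 0.016). By RT-PCR the study reports PCK2, PC and MPC1 as significantly higher in MT-F7, so the direction of PCK2 differed here. The study also reports ME1 as lower.

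Upstream of pyruvate, 14 of 15 tested genes of glycolysis and glucose uptake were significantly lower and none was higher (median log2 fold change -1.18), against 11.3% and 11.9% of all tested genes. Limma on log2(TPM + 1) called 7 of 16 lower, and 10 of 16 with a pseudocount of 0.1. Of all 16900 genes these fits called 723 and 883 lower. Most genes of the list were named by the study from the same libraries, so their direction is not independent evidence. For HK1, PKM and GAPDH the study also reports a reduced level in MT-F7 by RT-PCR. The largest falls were those of the glucose transporter SLC2A3 (log2 fold change -3.27, adjusted p = 2.3e-06), the hexokinase HK2 (-2.38, 0.00021), PGK1 (-2.06, 2.1e-05) and PFKL (-1.79, 1.1e-05). PKM, the pyruvate kinase that makes the pyruvate, had a smaller change (-0.63, adjusted p = 0.018), and its call was lost without MC-F7 replicate 2 (adjusted p = 0.087), MT-F7 replicate 1 (0.051) or MT-F7 replicate 2 (0.062), and in limma on log2(TPM + 1) (0.108). PFKM was the exception in the list (log2 fold change -0.0028, from 32.4 ± 6.24 to 32.3 ± 3.47 CPM, SD, n = 3). The fall of LDHA was larger than that of every tested gene in this list, while those of LDHB and PDHA1 were smaller than the list's median.

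**Figure D4:**
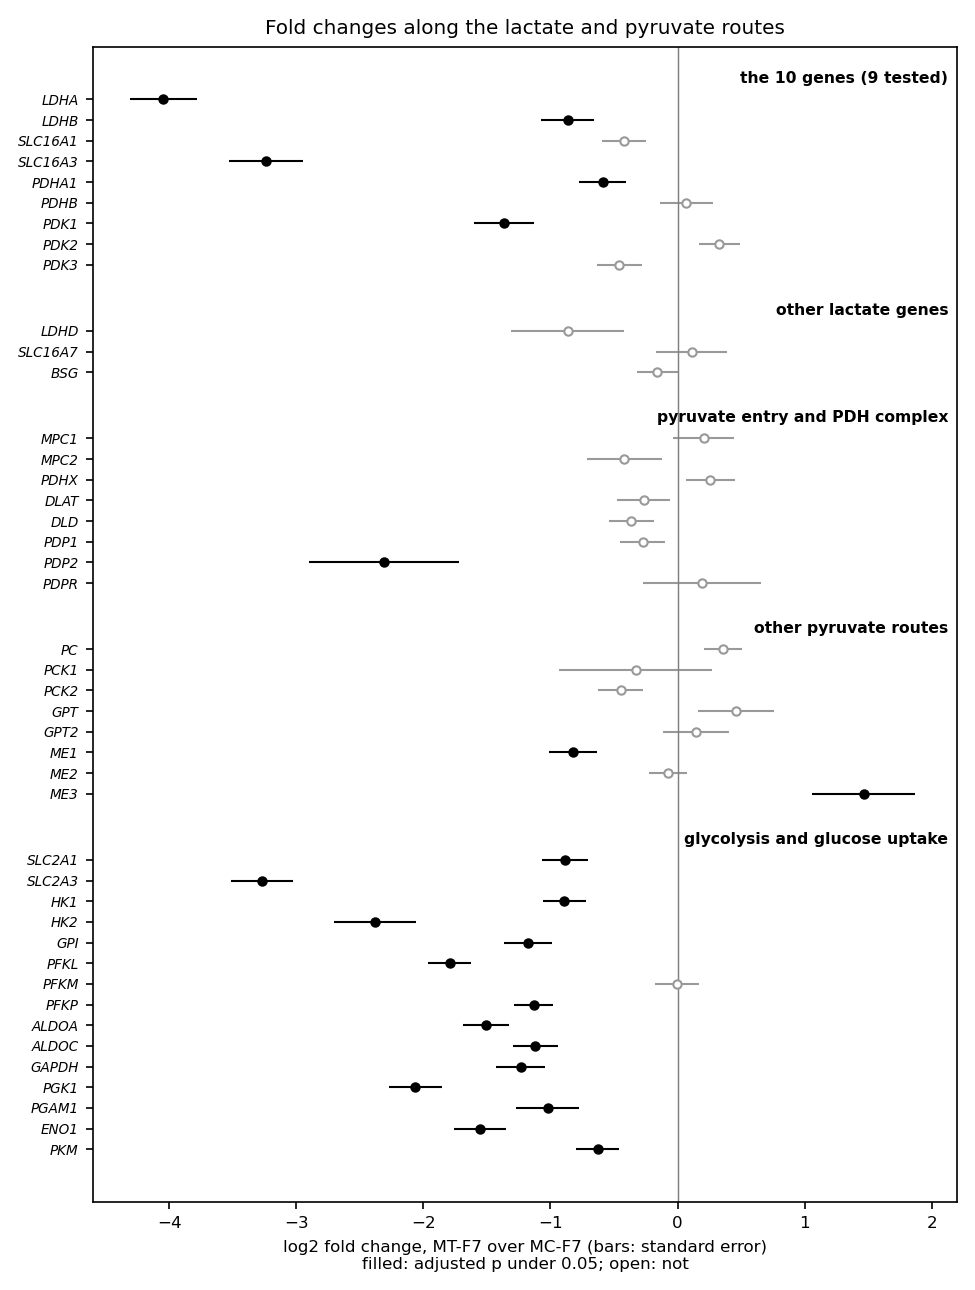
Log2 fold change (x axis) with standard error bars for the 9 tested lactate and pyruvate genes and the tested genes of 4 related lists, one gene per line. Filled points passed an adjusted p of 0.05 and open points did not. Filled points left of 0 dominate in glycolysis and glucose uptake (14 of 15), while most genes of pyruvate entry, the dehydrogenase complex and the other pyruvate routes are open and lie near 0.

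Of 13 tested regulators known to act on LDH and PDK genes, 5 were lower and none was higher (median -0.21). The shares among all tested genes were 11.3% lower and 11.9% higher. EPAS1, an oxygen-regulated factor of the HIF family, fell from 1.96 ± 0.613 to 0.228 ± 0.0138 CPM (SD, n = 3; log2 fold change -3.08, adjusted p = 0.00041), and FOXO1, a known inducer of PDK4, fell by 2.10 on the log2 scale (adjusted p = 0.0017). EGLN1, a prolyl hydroxylase that marks HIF proteins for degradation, was 2.82-fold lower (adjusted p = 0.00014). HIF1A itself was at 145 ± 22.7 CPM in MC-F7 and 134 ± 13.3 CPM in MT-F7 (-0.11, adjusted p = 0.65). ESRRA (-0.53, adjusted p = 0.033) and HIF3A (-0.68, adjusted p = 0.042) were the other calls. The study reports both HIF1A and HIF3A as lower in MT-F7, whereas no HIF1A difference was detected here. With 1 library left out at a time, ESRRA passed in 2 of 6 fits and HIF3A in 1 of 6, and the count was 3 of 13 without MC-F7 replicate 2, MT-F7 replicate 1 or MT-F7 replicate 2. Limma on log2(TPM + 1) called 2 of 15, EGLN1 lower and EGLN2 higher, against 2118 of 16900 genes in all.

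The genes whose levels followed LDHA most closely over the 6 libraries were found among the 7811 tested genes that averaged 10 CPM or more, by the root mean square difference of the centred log2 CPM. They were AK4, a mitochondrial adenylate kinase (0.25), the Src-family kinase LCK (0.42), the keratin KRT7 (0.44), the glucose transporter SLC2A3 (0.47) and the zinc finger gene ZNF296 (0.48). Their log2 fold changes lay between -3.86 for ZNF296 and -3.27 for SLC2A3. For PDK1 they were P4HA1, a collagen prolyl hydroxylase subunit (0.14), the aldehyde dehydrogenase ALDH3B1 (0.16), the glycogen phosphorylase PYGL (0.18), the glycolytic enzyme GPI (0.19) and POU5F1 (0.19). POU5F1, the pluripotency factor OCT4, fell from 1196 ± 330 to 522 ± 35.6 CPM (SD, n = 3; log2 fold change -1.19), and like PDK1 it differed strongly between the MC-F7 libraries. These likenesses describe 6 libraries that share a depth and a group difference, and carry no test.

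Markers of the labelled cell type were present in every library, but lower in MT-F7. For the marker counts below, the shares among all tested genes were 11.3% lower and 11.9% higher. Of 8 tested pluripotent stem cell markers 7 were lower, all but SALL4, and their summed level was 1457 to 2197 CPM in MC-F7 and 790 to 928 CPM in MT-F7. Markers of neural progenitors moved the other way. Of 7 tested neural markers 5 were higher (PAX6, SIX3, RAX, LHX2 and FABP7), and the summed level was 472 to 563 CPM in MC-F7 and 1210 to 1301 CPM in MT-F7. Of 15 tested fibroblast markers 4 were higher (COL3A1, COL5A1, PDGFRB and POSTN) and 1 was lower (TWIST2), and none was at 0 in a whole group. Their summed level was 331 to 394 CPM in MC-F7 and 498 to 540 CPM in MT-F7. The largest part of it was COL1A1, at 205 ± 31.4 and 268 ± 15.6 CPM, which did not pass (adjusted p = 0.094). In 5 of the 15 every MT-F7 library was above every MC-F7 library (19.9% of all tested genes), and in 2 every one was below (20.1%). With 1 library left out at a time, the calls of LIN28A, PDGFRB and POSTN held in 3, 3 and 5 of 6 fits. Limma on log2(TPM + 1) called 4 of 9 pluripotent stem cell markers lower and 4 of 9 neural markers higher. Of 15 fibroblast markers it called 3 higher and 1 lower. Among all 16900 genes that fit called 1395 higher and 723 lower. SOX2 and SOX1 were not analysed here. LIN28B was not found in the count table, and in limma on log2(TPM + 1) it did not pass (log2 fold change 0.05, adjusted p = 0.82). The study reports a higher alignment rate to the bovine genome in MT-F7 than in MC-F7, and proposes less feeder cell contamination in MT-F7. The part of these marker differences, or of reads from mouse feeder cells, in the values of the lactate and pyruvate genes was not tested.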

How the data were processed

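RNA-seq of 3 MC-F7 and 3 MT-F7 libraries was analysed. The authors filtered the reads and used HISAT2 2.0.5 for alignment (Ensembl Bos taurus genome) and featureCounts 1.5.0-p3 for counting, per the submitters' processing notes. The genome build is not given in the sources used here. The authors deposited raw counts per Entrez gene, and a second table of values named TPM. In 9681 of 9682 genes with at least 50 counts, the ratio of deposited TPM to counts was equal in all libraries within 0.1%, so these TPM were not scaled to a common total (column sums 154763 to 164394). They were used to compare genes per length.

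The 10 genes and the 8 gene lists were chosen with earlier results of these data known. Low genes were removed with filterByExpr (minimum count of 10, total of 15), and the rest were tested in edgeR 4.0.16 (TMM, quasi-likelihood, two-sided, no block), with Benjamini-Hochberg adjustment over 13001 genes and a threshold of 0.05. Common dispersion was 0.0342. Standard errors are the absolute log2 fold change over the square root of F, 95% intervals use the t distribution with the degrees of freedom of that test, and CPM are TMM-normalized. Log ratios were compared by exact permutation. Of each list, counts and at most the 4 called genes with the largest change were named, with genes of a step that one of the 10 carries out. Other names, such as all 5 calls of a marker list, were added after their values were seen. Alternatives were RLE factors, library size only, DESeq2 1.42.0, the likelihood ratio test, other filters, limma 3.58.1 on log2(TPM + 1) and log2(TPM + 0.1), a replicate block, a fold change limit, each library left out, and, chosen after seeing the data, both replicate 3 libraries left out and the 13 mitochondrial genes removed. R 4.3.3 and Python 3.11.15 were used, and the steps were tested on simulated data. No pair of libraries agreed within sampling noise.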

Additional observations from a re-analysis of the deposited data

How the results depend on the processing

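LDHA (log2 fold change -4.27 to -3.58) and SLC16A3 (-3.81 to -1.40) passed the threshold under every alternative tried, and both log ratios kept their direction. With RLE factors, library size only, DESeq2, the likelihood ratio test, either other filter, or the mitochondrial genes removed, the same number of the 9 genes, 5, was called. Limma on the deposited TPM gave fewer calls: 3 of the 10 genes with a pseudocount of 1 and 3 with 0.1, of which PDK2 was higher (0.28, adjusted p = 0.029, and 0.43, adjusted p = 0.046), and 3 of 8 at a mean TPM of at least 1, where PDK2 did not pass (adjusted p = 0.11). In all, these fits called 2118 and 2574 of 16900 genes and 1310 of 7418. LDHB was then at -0.76 with either pseudocount and with that filter (adjusted p = 0.158, 0.107 and 0.055), PDHA1 at -0.20 and -0.42 (0.18 and 0.16), and PDK1 at -0.62 and -1.08 (0.113 and 0.057, and 0.043 with the filter, which passed). The other pathway genes called were 8 and 11 with these pseudocounts, against 17 of 34. With a fold change limit of 1 on the log2 scale, 3 of the 9 genes and 1489 genes in all were called. The 1310 calls of the filtered limma fit were 879 higher and 431 lower, those of the unfiltered fits 1395 and 1691 higher against 723 and 883 lower, and those of edgeR 1553 higher and 1463 lower.

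With each library left out in turn, 1914 to 3093 genes were called in all (1914 without MC-F7 replicate 2), 4 to 7 of the 9 genes, and 14 to 19 of the other pathway genes. The log2 fold change was -0.77 to -0.47 for PDHA1, -0.56 to -0.29 for SLC16A1, -0.59 to -0.38 for PDK3 and -0.089 to 0.27 for PDHB, the only one of the 9 whose direction turned (-0.07 without MC-F7 replicate 3, -0.089 without MT-F7 replicate 2). Without both replicate 3 libraries, an alternative chosen after seeing the data, SLC16A1 (-0.42, adjusted p = 0.011) and PDK3 (-0.52, adjusted p = 0.015) passed.

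The replicate numbers are not stated to mark a shared batch. Deviations of same-numbered libraries correlated at 0.13, 0.04 and 0.42, and only replicate 3 correlated best with its own number, so no pairing was assumed. With the replicate block, 4674 genes and 7 of the 9 genes were called, SLC16A1 (-0.42, adjusted p = 0.011) and PDK3 (-0.45, adjusted p = 0.024) among them. Depth limits PDK4, at 13 counts or fewer per library, and PDP2 and EPAS1, which had few counts in MT-F7.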
